A study of Mus musculus with 3 samples.

Results

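The cells described here are those of the pretubular aggregate and the renal vesicle, the first structures of the forming nephron, in wild-type mouse kidney at E14.5 (embryonic day, counted from mating). They were chosen by a rule on detected transcripts, and 644 cells met it of 5110 with 500 or more detected genes (5189 barcodes in all). A cell was taken when it held 2 or more of Wnt4, Lhx1, Fgf8, Npy, Dkk1, Hes5 and Papss2. It was left out when it held 3 or more of the nephron progenitor markers Cited1, Six2, Crym, Spock2, Meox1 and Eya1, or 3 or more of the ureteric markers Calb1, Gata3, Ehf, Cldn3, Krt23 and Ret. A gene counted as detected from 1 molecule (UMI, a barcoded transcript) in the droplet libraries or from 20 reads in the Fluidigm C1 library.

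The study measured whole embryonic kidneys with 3 single-cell platforms, namely Drop-seq, 10x Chromium and Fluidigm C1. Each platform has 1 library, all of them wild type and of a mixed strain background of mostly CD-1 and 129, and no platform has a replicate library. Drop-seq and 10x catch cells in droplets and count UMIs, whereas C1 catches cells in the chambers of a chip and its table holds reads. How many embryos went into a library is not stated in those descriptions.

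In the embryonic kidney, nephron progenitors of the cap mesenchyme sit around the tips of the branching ureteric epithelium. WNT9B from the ureteric epithelium induces some of them to form a pretubular aggregate, which makes WNT4 and FGF8 and turns into an epithelial ball, the renal vesicle. LHX1 is needed for the vesicle to go on to form a nephron, and Notch signalling (ligands JAG1 and DLL1, targets of the HES and HEY families) acts in the patterning that follows. The vesicle is polarised, with the side next to the ureteric tip fated to distal segments and the far side to proximal tubule and podocytes.

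The rule took 356 of 1964 Drop-seq cells (18.1%, exact 95% binomial interval 16.4 to 19.9%), 207 of 2252 10x cells (9.19%, 8.03 to 10.5%) and 81 of 894 C1 cells (9.06%, 7.26 to 11.1%). These intervals cover counting error only, and the libraries differ in platform and in the cells they caught, so the shares were not tested. Members were deeper than other cells, with medians of 8618 against 6842.5 UMIs in Drop-seq, 10004 against 7007 UMIs in 10x and 222412 against 160745 reads in C1. A cell with more counts more readily shows 2 markers, and the rule was also applied to cells thinned to 4000 UMIs or 50000 reads, with shallower cells left out. It then took 287 of 1924 cells (14.9%) from Drop-seq, 125 of 1900 (6.58%) from 10x and 7 of 852 (0.822%) from C1. Detection in thinned C1 cells still required 20 reads, a higher bar relative to depth, so the lower C1 share follows in part from the setting. Of the 467 Drop-seq cells with 2 or more markers, 81 were left out by the progenitor list and 34 by the ureteric list, 4 of them by both. The same lists left out 19 and 20 of 246 cells in 10x, and 19 and 4 of 102 cells in C1 (2 by both). No cell barcode was shared between libraries. Among the cells of C1, whose names fall into a pair of groups of unstated meaning, 57 of 562 named HT and 24 of 332 named E14 were members.

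Lhx1, a LIM homeobox transcription factor, was the most widely detected marker in the droplet libraries and not in C1. It lies on chromosome 11 from 84518284 to 84525535 (minus strand, build GRCm38). It was found in 90.2% of Drop-seq members, 74.4% of 10x members and 39.5% of C1 members, at 670 (641 to 699), 223.5 (203 to 246) and 98.5 (94.1 to 103) CPM (the summed counts of a group of cells, scaled so that every group has the same total). All levels here are CPM over the 17829 genes shared by the 3 tables, and the ranges after levels are exact Poisson intervals for counting error only. The order of the libraries differed for Wnt4, the autocrine signal of the aggregate (chromosome 4, 137277489 to 137299726, plus strand). Wnt4 stood at 101 (90.4 to 113) CPM in Drop-seq, 275 (252 to 300) CPM in 10x and 244.5 (238 to 252) CPM in C1, and in 41.6%, 52.2% and 66.7% of members. These levels chose the cells, so they are a description of the members and no test of them was made.

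Dkk1, a secreted WNT antagonist, stood at 159.9 CPM in Drop-seq, 192 CPM in 10x and 113 CPM in C1. Hes5, a Notch target, stood at 120.5, 139.9 and 60.2 CPM, and the growth factor Fgf8 at 106, 79.0 and 66.5 CPM. Papss2, which makes the sulfate donor of the cell, and the neuropeptide gene Npy were the lowest in 10x, at 43.4 and 47.5 CPM, against 91.6 and 92.9 CPM in Drop-seq and 92.8 and 83.5 CPM in C1. Of the 1363 exonic bases of Hes5, 433 overlap the antisense gene Gm20421, and whether the counting used strand is not stated in the descriptions of the study. The other 6 markers overlap no annotated exon.

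The 7 markers differed in how far they were limited to the members. Comparison groups were cells with 3 or more markers of their own type and fewer than 2 of the 7, so low levels there follow from the rule. Stroma, which the rule did not name, still held Dkk1 at 63.3 CPM in Drop-seq, 128 CPM in 10x and 74.5 CPM in C1. Ureteric cells held Lhx1 at 139.6, 42.9 and 19.2 CPM. In ureteric, stromal and proximal cells of the 3 libraries Fgf8 reached at most 5.65 CPM and Hes5 at most 3.996 CPM, whereas progenitor cells held Fgf8 at 16.5, 23.0 and 9.46 CPM.

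**Figure D1:**
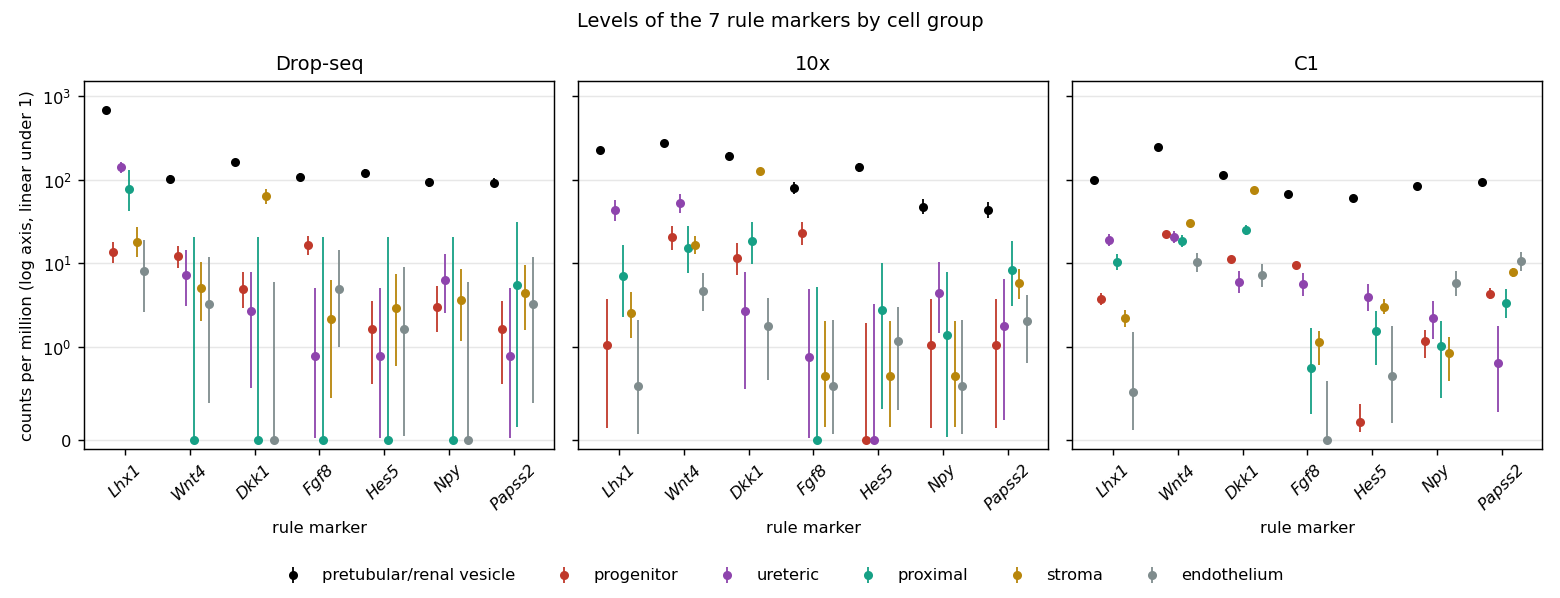
Level of each of the 7 markers (CPM, log axis that is linear under 1) in members and in 5 comparison groups, 1 panel per library; points are summed counts and bars are exact 95% Poisson intervals. Members (black) are the highest group for all 7 markers in each library, and Dkk1 in stroma comes closest to them in 10x (128 against 192 CPM).

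Most members held few of the markers. In Drop-seq 127 members held 2 markers, 104 held 3, 75 held 4, 37 held 5 and 13 held 6. In 10x the counts for 2 to 7 markers were 108, 49, 28, 14, 5 and 3, and in C1 the counts for 2 to 5 markers were 44, 24, 12 and 1. Cells just inside and just outside the threshold of 2 markers were compared without a test. Pax8, an early nephron transcription factor that the rule did not use, stood at 175.7 CPM with 2 markers and 73.9 with 1 in Drop-seq, at 97.0 and 46.7 CPM in 10x, and at 156.0 and 72.6 CPM in C1. Ccnd1 (cyclin D1) stood at 1608 and 677 CPM, at 444 and 196 CPM, and at 649.8 and 377 CPM. Bmp2, a BMP ligand, went on from 48.6 CPM with 2 markers to 155.8 CPM with 4 or more in Drop-seq, from 10.3 to 63.0 CPM in 10x and from 29.7 to 84.97 CPM in C1. The collagen gene Col3a1 moved the other way across the threshold, with 214.6 CPM at 1 marker and 124.9 at 2 in Drop-seq, 409.6 and 135.8 in 10x, and 566 and 112 in C1. Cells with more markers were also deeper, from a median of 7398 UMIs with 2 markers to 10874 with 4 or more in Drop-seq, and the part of depth in these levels was not tested.

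**Figure D2:**
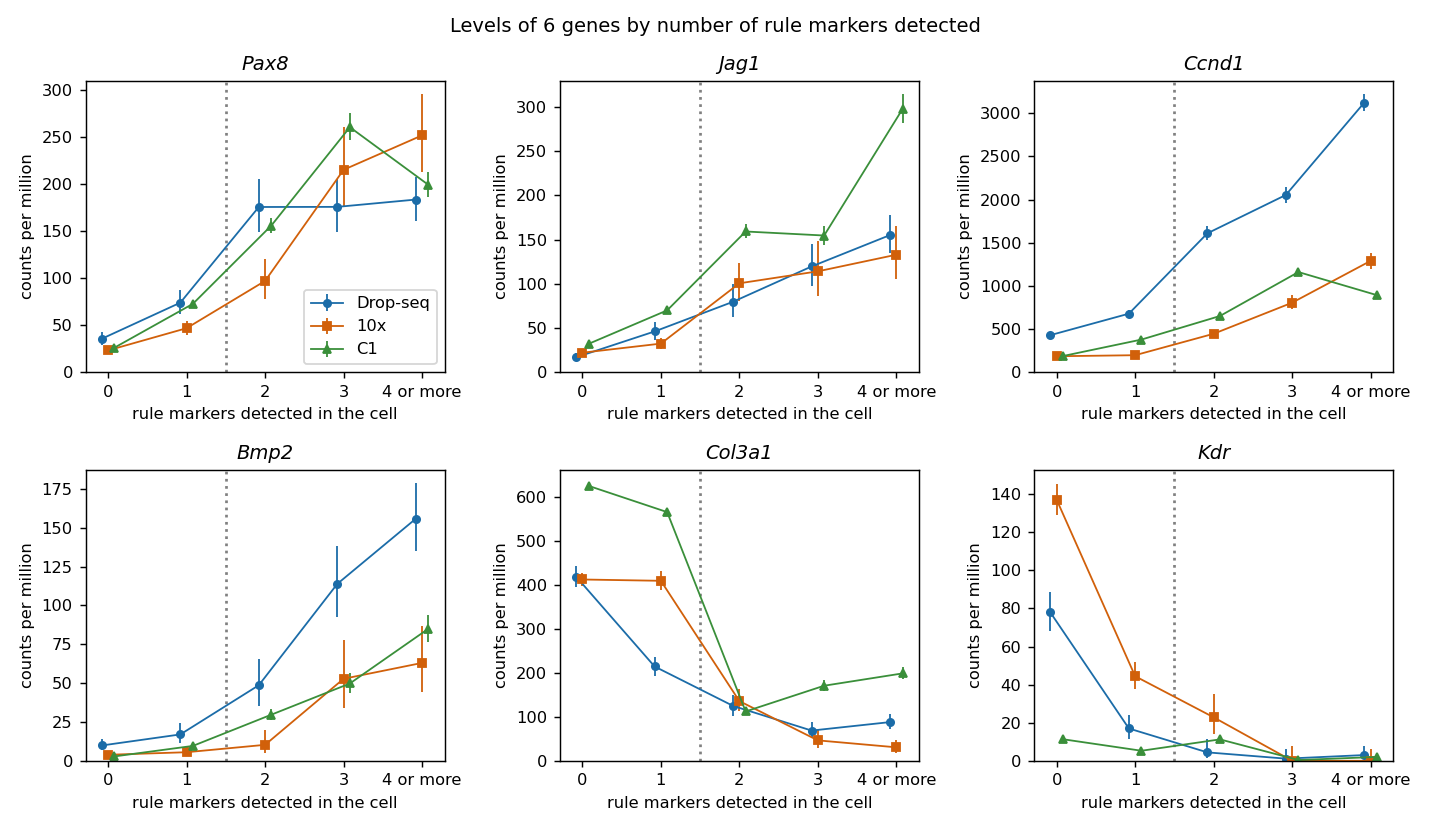
Level (CPM, linear axis, exact 95% Poisson intervals) of 6 genes that the rule did not use against the number of rule markers in the cell, among cells that pass both exclusion lists; the dotted line is the threshold of 2. Pax8, Jag1, Ccnd1 and Bmp2 are higher with 2 markers than with 1 in each library, while Col3a1 is lower with 2 than with 1 in each library and Kdr is so in Drop-seq and 10x only.

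Markers of other kidney cell types were counted in the members in the same way. Distal tubule markers (Slc12a1, Umod, Tmem52b, Irx1, Irx2, Sim1, Sim2 and Emx1) were found 3 or more at a time in 34 of 356 Drop-seq members (9.55%, exact 95% interval 6.70 to 13.1%), 21 of 207 10x members (10.1%, 6.39 to 15.1%) and 0 of 81 C1 members (upper bound 4.45%). The same count was met by 1 of 490, 2 of 217 and 0 of 179 progenitor cells, and by 5 of 140, 1 of 139 and 0 of 34 ureteric cells. Some droplet members thus also held markers of the distal list, and so did other groups. The list summed to 181, 209 and 72.2 CPM in members, 160, 53.7 and 47.0 CPM in ureteric cells, and 66.5, 159 and 46.0 CPM in proximal cells. Stromal markers were found 3 or more at a time in 10.96%, 14.98% and 23.5% of members and in 11.8%, 17.5% and 20.1% of progenitor cells. Their summed level was 254, 270 and 390 CPM in members against 2585, 3297 and 3291 CPM in stromal cells. Proximal, podocyte, endothelial and immune markers were found 3 or more at a time in 0 to 6.17% of members of any library. Proximal markers met this count in 2.25%, 5.80% and 6.17% of members and in 1.02%, 1.84% and 0.559% of progenitor cells. They summed to 59.9, 121 and 154 CPM in members, 28.4, 25.6 and 35.2 CPM in progenitor cells and 2472, 2291 and 1364 CPM in proximal cells. Podocyte markers summed to 79.8, 76.9 and 31.5 CPM in members and 41.0, 25.6 and 20.7 CPM in progenitor cells. Endothelial markers summed to 18.3, 79.0 and 92.3 CPM in members, with all 6 at 1 count or more, and to 1983 to 2574 CPM in endothelial cells. In progenitor cells they summed to 35.5, 13.1 and 157 CPM, so members were above progenitors in 10x and below them in Drop-seq and C1. Haemoglobin and other erythroid transcripts met it in 70.8% of members and 72.0% of progenitor cells of Drop-seq, and summed to 657 CPM in 10x members against 21.9 CPM in 10x progenitor cells. As an alternative, members with 3 or more stromal, endothelial, immune, podocyte or proximal markers were left out, while the part of distal and erythroid transcripts in the results below was not tested.

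The members were then compared with other cells on genes outside the rule. Counts were summed per library and cell group, and edgeR's quasi-likelihood test was fitted with the library as a block, on 12 sums of members, progenitor, ureteric and proximal cells. The library term takes up differences between the libraries themselves. The p-values therefore set a difference against how unevenly group differences repeated over 3 libraries that differ in platform, pooled over these cell groups. Benjamini-Hochberg adjustment was made over 11426 genes, with a threshold of 0.05. Genes used to define any group were left out of the tests. The groups were cut from the expression of these same cells, so a gene that varies with the rule's genes from cell to cell differs between them by construction, and a call is a description of the chosen cells over 3 libraries.

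Against nephron progenitors, the cells they form from, the members held more transcripts of Pou3f3, Jag1, Dll1 and Cdh1 and fewer of Rspo3, Osr1 and Robo2. Of 11426 genes, 462 were higher (4.04%) and 236 lower (2.07%), 6.11% in all, with a median log2 fold change of -0.03 over all genes. Of the 30 genes of an early nephron list, 20 rose and 2 fell, and the median log2 fold change of the list was 2.81. This list was drawn up with earlier results of these libraries known, so its count is a description.

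Among transcription factors, Pou3f3, a distal nephron factor, stood at 111 CPM in Drop-seq members, 61.4 in 10x and 33.2 in C1. Progenitor cells held 4.41, 2.61 and 1.44 CPM, so the members were far above them in each library (log2 fold change 4.61, SE 0.25, adjusted p = 2.12e-08). Pax8, already transcribed in progenitors, rose from 40.2 to 179 CPM in Drop-seq, from 23.0 to 173 in 10x and from 34.2 to 193 in C1 (2.44, SE 0.23, adjusted p = 5.47e-06). Osr2 rose by 3.50 (SE 0.31) and Sox9 by 3.15 (SE 0.25) on the log2 scale, and Osr1, which marks progenitors, fell by 4.24 (SE 0.47). Osr1 stood at 4.81, 4.13 and 12.3 CPM in members against 109, 129 and 109.6 CPM in progenitors. Of 38 tested genes of a list of nephron transcription factors 11 rose and 7 fell (median 0.17), the falls including Hoxc10 (-1.23, SE 0.27) and Hoxd10 (-1.20, SE 0.32).

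Notch genes that rose included ligands, a receptor and targets. Jag1 stood at 123 CPM in Drop-seq members, 114 in 10x and 190 in C1, against 11.01, 3.13 and 18.2 CPM in progenitors (log2 fold change 3.71, SE 0.26, adjusted p = 2.21e-07). Dll1, the other ligand, stood at 80.4, 73.3 and 39.9 CPM against 4.68, 2.61 and 1.14 CPM (4.71, SE 0.46, adjusted p = 7.54e-06). Of the 4219 exonic bases of Dll1, 867 overlap another annotated gene. Nrarp, a target that restrains the pathway, stood at 49.3, 117 and 37.7 CPM against 4.13, 7.31 and 3.998 CPM (3.53, SE 0.34, adjusted p = 6.63e-06). For Nrarp 2051 of 2582 exonic bases overlap an antisense gene, so its reads and those of its partner cannot be told apart without strand. In all, 7 of 22 tested Notch genes rose, the others being Lfng (which modifies Notch receptors with sugar), Maml2, Notch1 and the target Hey1, and 2 fell, namely Hes6 (-0.96, SE 0.25) and Adam10 (-0.68, SE 0.15). The median of the list was 0.14.

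The promoters of Hes5 and Lfng are shown because, of the promoters of Hes5, Lfng, Nrarp, Jag1 and Dll1, they are those in which the letters TGGGAA, the core of the sequence bound by RBPJ (the DNA-binding partner of Notch), were found. TGGGAA was searched on both strands, so that it also reads TTCCCA, in the 250 bases before each RefSeq start (GRCm38.p6), and capitals mark the matches. The Hes5 stretch is chr4:154960673-154960922 (plus strand), with matches that begin 226 and 82 bases before the start, and the Lfng stretch is chr5:140607091-140607340 (plus strand), with matches at 135 and 108 bases. The GENCODE start of Lfng lies inside the end of its stretch.
Hes5: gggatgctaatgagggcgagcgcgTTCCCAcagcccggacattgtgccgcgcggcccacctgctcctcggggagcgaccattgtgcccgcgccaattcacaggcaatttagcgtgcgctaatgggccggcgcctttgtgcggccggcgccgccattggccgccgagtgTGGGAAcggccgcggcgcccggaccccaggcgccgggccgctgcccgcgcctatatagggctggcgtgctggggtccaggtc
Lfng: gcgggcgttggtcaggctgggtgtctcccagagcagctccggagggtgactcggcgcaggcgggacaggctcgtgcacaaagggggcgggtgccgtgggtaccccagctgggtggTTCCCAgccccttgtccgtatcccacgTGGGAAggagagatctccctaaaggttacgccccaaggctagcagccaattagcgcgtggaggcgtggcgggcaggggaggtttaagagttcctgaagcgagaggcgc
Of 32851 promoter entries of that length, 21.6% hold the letters once or more and 2.77% hold them 2 or more times. The stretches of Nrarp, Jag1 and Dll1 hold no match. A match is a description of these letters and not of binding.

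WNT genes moved in both directions. Lef1, a transcription factor of the WNT pathway and often its target, stood at 74.0, 33.6 and 44.4 CPM in members against 7.71, 2.61 and 6.43 CPM in progenitors (log2 fold change 3.16, SE 0.33, adjusted p = 1.31e-05). The receptor Lgr5 rose by 3.44 (SE 0.41) and the secreted antagonist Sfrp2 by 2.36 (SE 0.28) on the log2 scale. Sfrp2 was abundant in members, at 478, 247 and 208 CPM. Rspo3, a secreted enhancer of WNT signals in progenitors, stood at 6.41, 6.71 and 27.7 CPM in members against 110.1, 159 and 137 CPM (-3.44, SE 0.37, adjusted p = 1.81e-05). Rspo1 (-1.93, SE 0.40) and Tcf7l1 (-1.66, SE 0.34), a repressor of WNT targets, also fell. Of 37 tested WNT genes 4 rose and 4 fell (median 0.28).

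In the BMP, FGF and RET axis lists, genes also passed the test. Bmp2 rose in members (113, 36.7 and 47.6 CPM against 4.13, 1.04 and 8.34; log2 fold change 3.72, SE 0.50, adjusted p = 0.000179), and so did Bmp4 (1.91, SE 0.46) and the BMP target Id4 (1.92, SE 0.40). In the BMP and TGF-beta list 5 of 28 genes rose and none fell (median 0.27). Of 22 FGF genes 2 rose, the receptor Fgfr4 (3.04, SE 0.59) and the feedback inhibitor Spry1 (0.70, SE 0.19), and 2 fell, Fgf1 and Etv1 (-1.96, SE 0.45). Fgf1 held a single UMI in all droplet members and no read in C1 members, against 14.3, 6.27 and 2.16 CPM in progenitors. In the RET axis list, whose genes act between progenitors and the ureteric tip, 7 of 18 tested genes fell and 2 rose (median -0.27). Robo2, a guidance receptor that limits Gdnf, stood at 29.2, 31.5 and 34.9 CPM against 253, 366 and 177 CPM (-3.00, SE 0.25, adjusted p = 1.2e-06). Nell1 (-4.12, SE 0.67) and Kif26b (-2.68, SE 0.59) fell as well.

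Epithelial adhesion genes rose with the same cells. Of 33 tested adhesion and polarity genes 15 rose and 1 fell, with a median log2 fold change of 0.95. Cdh1 (E-cadherin) stood at 61.8, 50.6 and 75.7 CPM in members against 6.06, 4.18 and 4.84 CPM in progenitors (3.72, SE 0.26, adjusted p = 2.21e-07). The tight junction gene Cldn7 rose by 3.52 (SE 0.17), the desmosome gene Dsp by 3.63 (SE 0.44) and Epcam by 2.80 (SE 0.20) on the log2 scale. Cdh11, a mesenchymal cadherin, fell (-1.66, SE 0.27, adjusted p = 0.001) but was still at 95.5, 35.1 and 67.4 CPM in members. In the matrix list 12 of 32 genes rose and 3 fell (median 0.50). Lama1, a laminin chain of the nephron basement membrane, stood at 37.8, 66.1 and 174 CPM against 5.23, 6.27 and 23.6 CPM (2.99, SE 0.23, adjusted p = 5.42e-07), and Itga8, the integrin of progenitors that binds nephronectin, fell by 2.41 (SE 0.35).

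Among 30 cell cycle genes, Ccnd1 stood out. It reached 2379.95 CPM in Drop-seq members, 788 in 10x and 837 in C1, against 287, 111 and 137 CPM in progenitors (log2 fold change 2.82, SE 0.22, adjusted p = 6.82e-07). Plk1 (0.74, SE 0.19) and Ccnb2 (0.53, SE 0.13), which act in mitosis, rose, and the inhibitor Cdkn1c (-0.72, SE 0.12) and Ccnd3 (-0.60, SE 0.15) fell, with a list median of 0.09. Of 23 dissociation stress genes only the metallothionein Mt1 passed the test (2.32, SE 0.20, list median -0.29). Outside the lists, Tspan8, a membrane tetraspanin, was among the largest rises at 109, 28.9 and 43.7 CPM against 3.85, 1.04 and 1.94 CPM (4.64, SE 0.51, adjusted p = 2.45e-05). Traf1, a signalling adaptor, was among the largest falls at 0.641, 1.03 and 1.19 CPM against 18.7, 44.9 and 32.0 CPM (-4.96, SE 0.61, adjusted p = 7.17e-05).

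**Figure D3:**
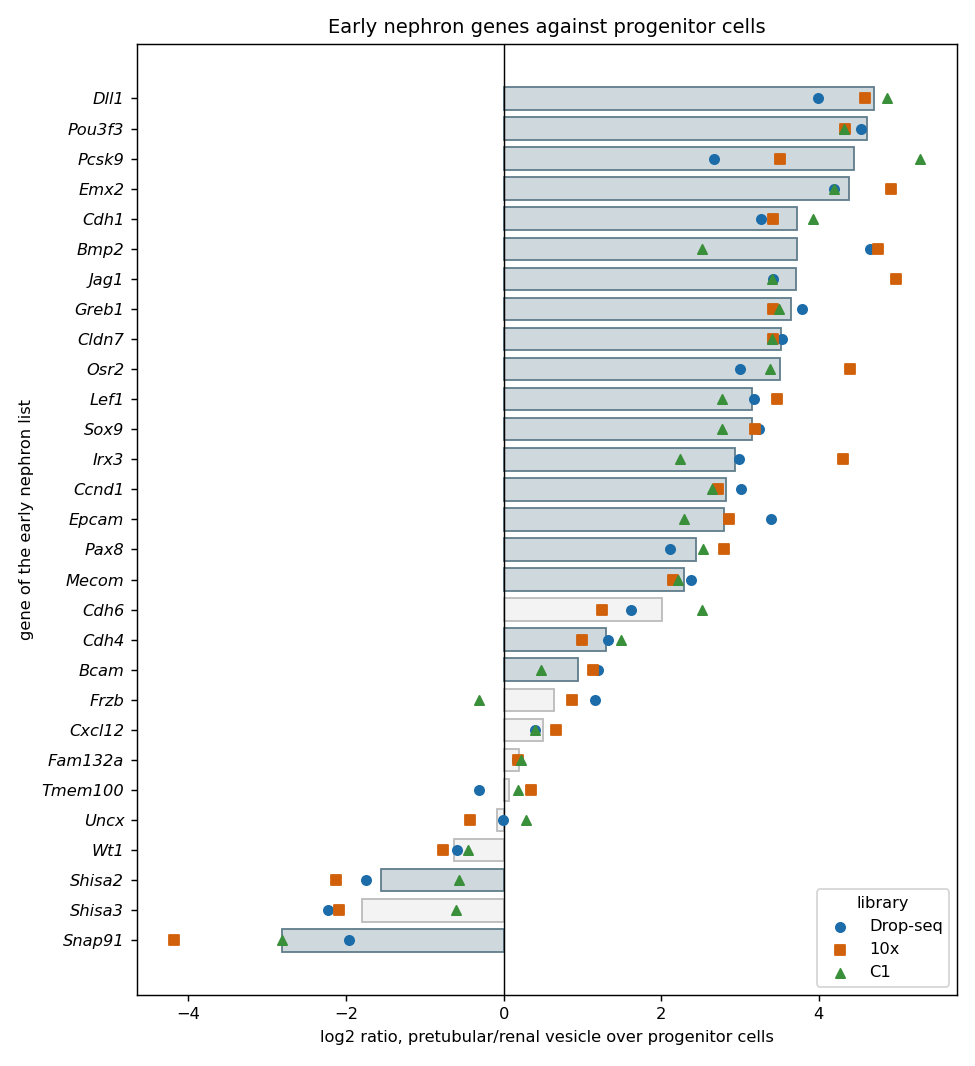
Log2 ratio of members over progenitor cells for genes of the early nephron list; bars are the fitted values (dark where the adjusted p is under 0.05), and points are the ratios within each library. The genes that rose are above 0 in all 3 libraries, and Snap91 and Shisa2, which fell, are below 0 in all 3.

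The number of genes called against progenitors depended on the libraries, with 345 when Drop-seq was left out, 298 when 10x was and 2109 when C1 was. It was 120 without the library as a block. Of the 68 called genes that were eligible to be named, 12 passed the threshold in every alternative that gave a value, among them Bmp2, Ccnd1, Dsp, Epcam, Jag1, Osr2, Pax8, Pou3f3, Robo2, Rspo3 and Sfrp2.

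Against ureteric epithelium, the other epithelium next to them, the members held more Osr2, Wt1, Hey1 and Lfng and less Krt18, Cldn8, Wnt9b and Wnt11. Of 11426 genes, 438 were higher (3.83%) and 513 lower (4.49%), 8.32% in all, with a median of 0.04. These contrasts use the same member sums as those against progenitors. Of the early nephron list 19 of 30 genes were higher and 6 lower (median 1.60). Osr2 stood at 74.0, 288 and 153 CPM in members against 3.63, 1.79 and 0.689 CPM in ureteric cells (6.93, SE 0.48, adjusted p = 3.06e-07). Wt1, a factor of the metanephric mesenchyme and podocytes, stood at 74.7, 108 and 73.2 CPM against 11.8, 5.37 and 21.8 CPM (2.48, SE 0.35, adjusted p = 0.000262). Sox9, which is also a ureteric tip factor, was lower in members (-1.78, SE 0.22).

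In the Notch list 8 of 22 tested genes were higher in members than in ureteric cells and none was lower (median -0.04). Hey1 stood at 81.7, 91.4 and 118 CPM against 9.07, 6.26 and 1.93 CPM (4.69, SE 0.53, adjusted p = 3.74e-05). Lfng stood at 81.1, 106 and 7.51 CPM against 13.6, 3.58 and 0.413 CPM (3.76, SE 0.43, adjusted p = 4.22e-05), and its level in C1 was well under that of the droplet libraries in both groups. The adhesion list went mostly the other way, with 5 of 33 higher and 17 lower (median -1.03). Krt18, a keratin of simple epithelia, stood at 29.8, 37.7 and 15.7 CPM against 568, 845 and 839 CPM (-4.83, SE 0.39, adjusted p = 1.65e-05). Cldn8 (-6.61, SE 0.80) and Cldn4 (-4.76, SE 0.46), claudins of the collecting duct, were lower too, and so was Epcam (-2.25, SE 0.18), while Cdh4 was higher (2.36, SE 0.35).

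Ligands of the ureteric epithelium were low in members. Wnt9b, the inducing signal, stood at 43.5, 25.1 and 28.9 CPM in ureteric cells and at 1.28, 0 and 0.0518 CPM in members (adjusted p = 0.000177). Wnt11, a target of RET signalling at the ureteric tip, stood at 141, 94.8 and 145 CPM against 6.41, 2.06 and 2.49 CPM (-5.24, SE 0.40, adjusted p = 7.42e-07). Of 37 tested WNT genes 7 were higher in members and 4 lower (median 0.02). The FGF list had 4 of 22 genes higher and 8 lower (median -0.84), the lower ones including Etv4, Etv5, Spry1 and Dusp6. Hdc, which makes histamine, was listed at 0 in the ureteric sums of all 3 libraries and at 9.29, 20.1 and 18.9 CPM in members (adjusted p = 8.82e-05). The number of calls was 419 when Drop-seq was left out, 427 when 10x was, 2268 when C1 was and 145 without the block, and 10 of 74 named genes passed in every alternative (among them Dll1, Osr2, Wt1, Sfrp2, Wnt11 and Krt18).

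Proximal tubule cells stand further along the nephron, and against them the members held more Sox9, Wt1, Sfrp2 and Ccne1 and less Krt8, Itgb6 and Mt1. Of 11426 genes, 1369 were higher (12%) and 1003 lower (8.78%), 20.8% in all, with a median of 0.11. The proximal group is small, with 29, 95 and 23 cells. Of the early nephron list 15 of 30 genes were higher and 2 lower (median 0.87), the lower ones including Cldn7 (-1.58, SE 0.15). Sox9 stood at 139, 79.0 and 27.3 CPM in members against 0, 1.40 and 0.259 CPM in proximal cells (adjusted p = 9.16e-07). Wt1 was higher in members (2.54, SE 0.39).

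Cell cycle genes were higher in 15 of 30 and lower in 2 (median 0.52) against proximal cells. Ccne1 (cyclin E1) stood at 64.1, 48.0 and 67.4 CPM in members against 5.54, 4.21 and 18.8 CPM (2.21, SE 0.33, adjusted p = 0.000276). Rrm2, which makes deoxynucleotides, was higher by 1.42 (SE 0.17), and the cell cycle inhibitor Cdkn1a was lower (-3.04, SE 0.68). In the WNT list 8 of 37 genes were higher and 5 lower (median 0.48), with Sfrp2 at 33.3, 15.4 and 13.1 CPM in proximal cells (4.12, SE 0.38) and Lgr5 at 5.54, 2.81 and 1.297 CPM (4.04, SE 0.54). Of the Notch list 9 of 22 were higher and 1 lower (median 0.43), including Dll1 (1.52, SE 0.42), Notch3 (2.01, SE 0.44) and Jag1 (0.80, SE 0.25). Krt8 (-3.48, SE 0.22), the integrin Itgb6 (-4.86, SE 0.49) and Mt1 (-3.06, SE 0.19) were lower in members. The number of calls was 970 when Drop-seq was left out, 1211 when 10x was and 368 without the block, where 39.4% of calls were higher against 57.7%, and 26 of 71 named genes passed in every alternative.

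**Figure D4:**
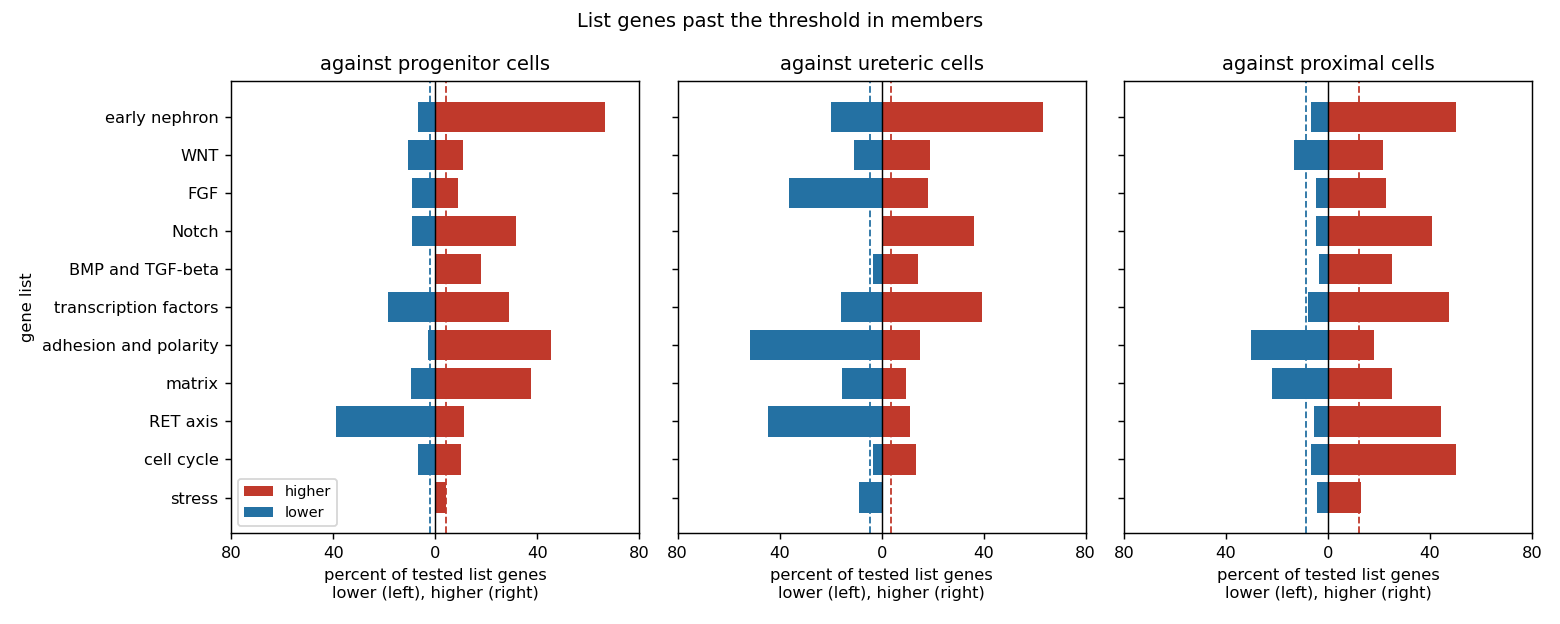
Percent of the tested genes of 11 lists that were higher (red, to the right) or lower (blue, to the left) in members than in progenitor, ureteric or proximal cells; dashed lines give the percent of all 11426 genes. Early nephron genes, a list drawn up with earlier results of these libraries known, were more often higher than lower in all 3 panels. Adhesion genes were more often higher against progenitors and more often lower against ureteric and proximal cells. The 3 panels share the member sums.

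Members with and without a detected Lhx1 transcript were compared in a fit of 6 sums with 2 residual degrees of freedom. They numbered 321 and 35 in Drop-seq, 154 and 53 among the 10x members and 32 and 49 in C1. Lhx1 is itself a marker of the rule, so a member without it had to hold 2 or more of the other markers, and a member with it fewer. The part of this difference in the calls was not tested. Of 9963 genes 2 were higher with Lhx1 (0.0201%) and 0 lower by edgeR's quasi-likelihood test, with 647 at an unadjusted p under 0.05, 4 called by DESeq2 and 1887 by limma-voom. Ccnd1 stood at 2475 CPM with Lhx1 and 1208 without in Drop-seq, at 866 and 515 CPM in 10x, and at 1103 and 643.5 CPM in C1 (log2 fold change 0.88, SE 0.097, adjusted p = 0.000406). Pcp4, a calmodulin-binding protein, stood at 143 and 42.7 CPM, at 185 and 51.3 CPM, and at 110.5 and 54.1 CPM (1.43, SE 0.22, adjusted p = 0.0184). Of the exonic bases of Ccnd1 1100, and of Pcp4 243, overlap another gene. Each call was lost in 7 of 17 alternatives, both of them without the Drop-seq library, without the block, with 3 or more markers required, with members holding stromal, endothelial, immune, podocyte or proximal markers removed, on thinned cells and with the C1 name groups apart.

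Npy and Papss2 were held by members with different companions among the 7 markers. Of the members with Npy, 56.8% (Drop-seq), 76.7% (10x) and 92.0% (C1) also held Wnt4, against 24.4%, 34.6% and 53.8% of those with Papss2. Of those with Fgf8, 53.1%, 41.5% and 38.9% held Papss2 and 15.6%, 16.9% and 11.1% held Npy. Each member holds 2 or more markers by the rule, which shapes these shares, so they are given without a test. Members with Npy and no Papss2 (89, 36 and 19 cells) were therefore set beside those with Papss2 and no Npy (106, 45 and 20 cells), a split chosen after these values were seen. Their median counts per cell were close in the droplet libraries (9434 and 9457.5 UMIs in Drop-seq, 10207.5 and 11467 in 10x) and apart in C1 (178750 and 240303 reads).

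The members with Npy and no Papss2 held more Wt1, Wnt4, Tmem100 and Heyl. Wt1, which marks the proximal side of the vesicle, stood at 151 (125 to 180.5) CPM with Npy and 33.6 (23.0 to 47.5) with Papss2 in Drop-seq. It stood at 268 and 57.0 CPM in 10x and at 174 and 51.1 CPM in C1. Wnt4 followed the same order, at 177.5 and 37.8 CPM, 623 and 92.1 CPM, and 427 and 123 CPM, but it is a marker of the rule, which shapes its level here. Tmem100 stood at 72.3 and 8.41 CPM in Drop-seq and at 108 and 4.71 CPM in C1, and Heyl, a Notch target, at 55.8 and 16.8 CPM and at 52.0 and 13.96 CPM. Of 15 Notch list genes compared, 1 (Heyl) was 2-fold or more higher with Npy in all 3 libraries, and 1, another target, was so with Papss2. Over all 5800 genes compared the shares were 0.397% with Npy and 1.12% with Papss2. A gene could enter through its higher side, so the count is no measure of the Notch list. Neither Wt1 nor Tmem100 had passed the test against progenitors, where the members were taken as 1 group.

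The members with Papss2 and no Npy held more Sox9, Pou3f3, Tfap2b, Sim1, Fgf8 and Epcam. Sox9 stood at 272 (240.1 to 307) CPM with Papss2 and 39.3 (26.7 to 55.8) with Npy in Drop-seq, at 142.5 and 19.4 CPM in 10x, and at 27.9 and 0.281 CPM in C1. Pou3f3 stood at 190.2 and 26.6 CPM in Drop-seq and at 47.3 and 5.90 CPM in C1. Tfap2b, a factor of the distal tubule, stood at 308 and 59.6 CPM, at 179.8 and 41.5 CPM, and at 84.3 and 0.562 CPM. Sim1, also a distal list gene, stood at 121 and 15.2 CPM in Drop-seq and at 73.6 and 2.53 CPM in C1. Fgf8, a marker of the rule, which shapes its level here, stood at 174.5 and 30.4 CPM, at 151 and 38.7 CPM, and at 113.5 and 0.281 CPM. Of 8 FGF list genes compared, the FGF targets Dusp6 (119 and 30.4 CPM in Drop-seq) and Etv4 (103 and 24.1 CPM) were the 2 that were 2-fold or more higher with Papss2 in all 3 libraries. Over all 5800 genes compared this share was 1.12%. A gene could enter through its higher side, so the count is no measure of the FGF list. Whether Dusp6 and Etv4 respond to Fgf8 was not tested. Epcam stood at 545 and 156 CPM, at 278.5 and 69.2 CPM, and at 158 and 13.2 CPM.

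Lhx1 and Jag1 did not take 1 side in all 3 libraries. Lhx1 stood at 674 (618 to 734) CPM with Npy and 746 (692 to 803) with Papss2 in Drop-seq, at 232 (185 to 288) and 230.2 (188 to 279) CPM in 10x, and at 135 and 84.5 CPM in C1. Jag1 was higher with Npy in Drop-seq (164 and 118 CPM) and higher with Papss2 in C1 (84.0 and 263 CPM). Of 5800 genes outside the rule with 10 or more counts on the higher side in each library, 23 were 2-fold or more higher with Npy in all 3 libraries (0.397%) and 65 with Papss2 (1.12%), with the lower side taken as no less than 3 counts. The distal marker genes Irx1, Irx2, Sim1 and Sim2 and the early nephron genes Pou3f3, Sox9, Cldn7, Epcam, Mecom and Cxcl12 were among the 65, and Tmem100 and Wt1 were among the 23. A gene could enter through the side on which it was high, so its presence here is no measure of its list, and the other 4 distal markers were not compared. Each library contributed 1 value on each side, and no test was made.

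**Figure D5:**
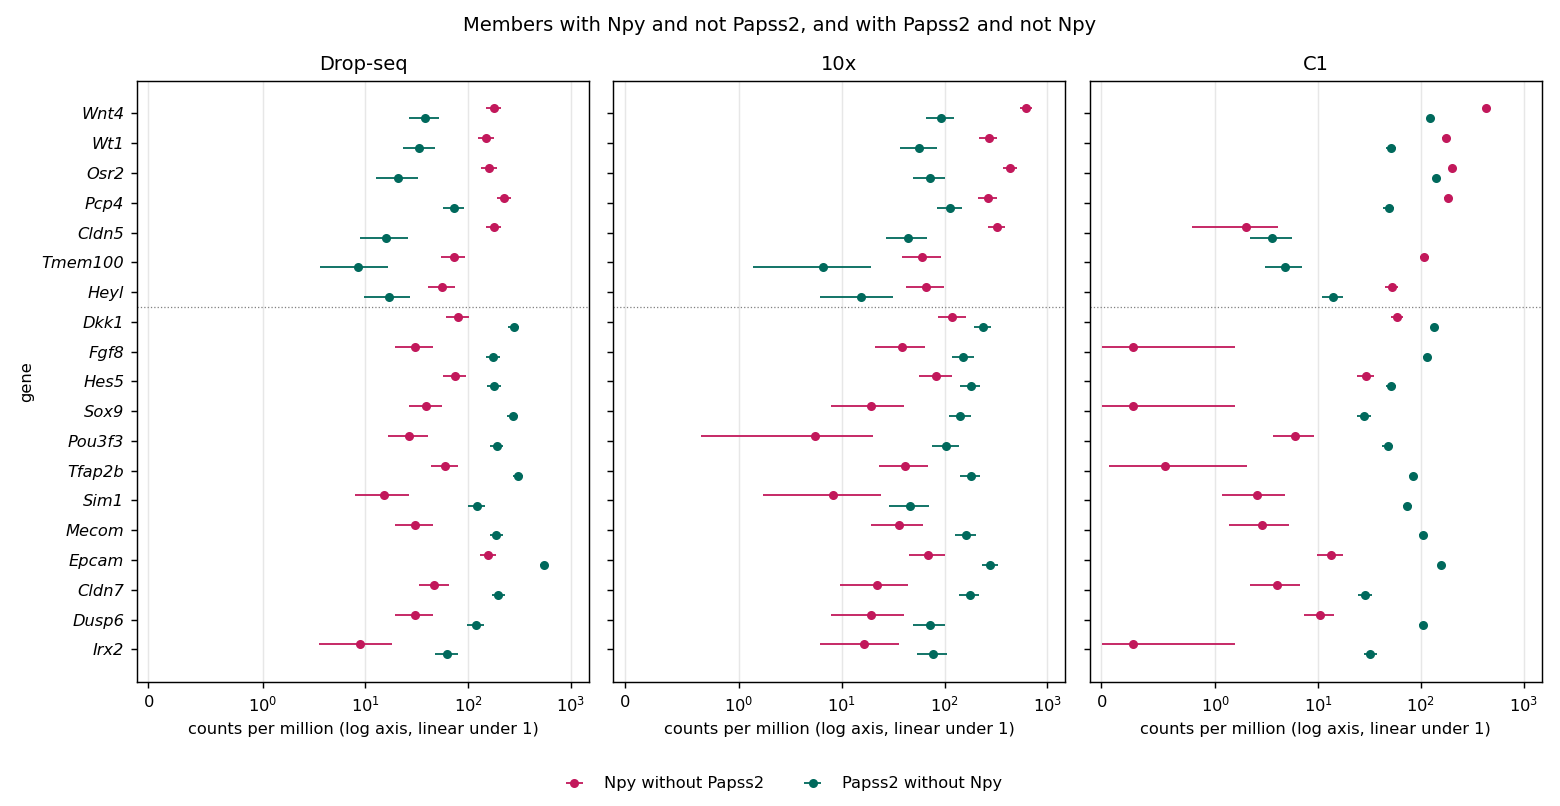
Level (CPM, log axis that is linear under 1, exact 95% Poisson intervals) of genes chosen after their values were seen, in members with Npy and no Papss2 (pink) and in members with Papss2 and no Npy (green), 1 panel per library. Above the dotted line are genes that are higher with Npy, except Cldn5 in C1 (1.97 and 3.58 CPM), and below it are genes that are higher with Papss2 in all 3 libraries.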

How the data were processed

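The authors deposited raw counts per gene and cell, UMI counts for Drop-seq and 10x and read counts for C1, and these counts were used. Per the submitters' processing notes, Bowtie2 2.2.7 was used for Drop-seq and C1 and Cell Ranger 1.3.0 for 10x, with mm10. No source used here names the counting tool, the annotation or how cells were chosen, and the labels' protocol describes Drop-seq for all 3 samples. The libraries hold 17751487 UMIs, 17952211 UMIs and 173799153 reads.

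Some list genes are counted in their lists but not reported here by name. Cells with 500 or more genes were grouped by detected markers, and counts were summed per library and group over 17829 shared genes. Podocytes (10, 23 and 2 cells) were left out of the fits because they numbered under 20 cells in a library. The alternatives applied no such limit, and the C1 member sum on thinned cells held 7 cells. The sums were tested with edgeR 4.0.16 (R 4.3.3, TMM, filterByExpr, robust quasi-likelihood, library and group terms), and scripts were tested on simulated data. Genes named were, per list, up to 3 of the largest rises and falls past the threshold with 1 direction in all 3 libraries, up to 6 outside the lists, and the early nephron list. Other genes listed to complete a count, and those of the Npy and Papss2 split, were chosen after their values were seen. Members, lists and tests were chosen with earlier results of these data known. Samples share replicate number 1 only because each platform has 1 library, and the block pairs groups cut from the same library. Scrublet (scanpy 1.11.5) marked 16 cells in 10x and 11 in C1, of which 2 and 1 were members, and 5 in Drop-seq (0.255%), which were not used. The calls made up 0.711% of 10x cells and 1.23% of C1 cells, against an expected share set at 6%. Doublets were removed only as an alternative, as were 105 10x cells (15 members) with over 20% mitochondrial counts. The C1 table names no mitochondrial gene, so no C1 cell could be marked by that share. Further alternatives were DESeq2 1.42.0 and limma 3.58.1 (voom), other filters, rules and groups, and each library left out.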

Additional observations from a re-analysis of the deposited data

How the results depend on the processing

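The numbers of genes called against progenitor, ureteric and proximal cells and by Lhx1 detection were 698, 951, 2372 and 2. Without the replicate block, that is without the library term, they were 120, 145, 368 and 0, and 81.7% of the calls against progenitors were then higher in members, against 66.2% with it. With limma-voom they were 2654 (52.0% higher), 2984, 4497 and 1887. Leaving out 1 library gave ranges of 298 to 2109, 419 to 2268, 970 to 3054 and 2 to 62, with the lowest proximal count without Drop-seq and the highest counts without C1. With the 2 C1 name groups apart the counts were 370, 448, 1214 and 0. With the rule on thinned cells, which left few C1 members, they were 84, 101, 977 and 0, and without C1, an alternative chosen after seeing the data, 1666, 1912, 2838 and 52. With 1 C1 read as detection they were 259, 384, 1732 and 95. With only the 2 groups compared in the fit, 1527 genes were called against progenitors and 1391 against proximal cells (46.0% higher). The calls by Lhx1 detection were 4 with DESeq2, 52 with no filter on low counts, 10 with 3 or more markers, 1 with fewer than 2 exclusion markers, 5 without Npy as a marker and 0 with members holding 3 or more stromal, endothelial, immune, podocyte or proximal markers removed. The cause of these changes was not tested.

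The share of members in Drop-seq, 10x and C1 was 11.7%, 4.40% and 4.14% with 3 or more markers, 14.9%, 6.58% and 0.822% of the cells deep enough to be thinned, and 15.6%, 7.02% and 5.70% with members holding markers of those 5 types removed (distal and erythroid markers were not used). It was 15.3% in Drop-seq with fewer than 2 exclusion markers and 14.4% in C1 with 1 read as detection. Each platform has 1 library, so depth, platform and the cells caught cannot be told apart.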
